A study of Ostrinia furnacalis with 30 samples.

Results

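The nuclear genes of the mitochondrial respiratory chain and ATP synthase were followed through the life cycle and 4 larval tissues of the Asian corn borer, *Ostrinia furnacalis*, a moth whose larvae bore into maize. Members were the annotated gene models with a numeric identifier whose description named NADH dehydrogenase, NADH-ubiquinone oxidoreductase, succinate dehydrogenase, cytochrome b-c1, cytochrome c oxidase or ATP synthase. The rule found 113 of 17284 such models, in a table of 20852 rows, and used no measured value. By their descriptions 42 were subunits of complex I (11 core and 31 accessory), 8 of complex II, 11 of complex III, 11 of complex IV and 21 of complex V (10 of its F1 head, 11 of its Fo base or stalk). Another 19 were assembly or maturation factors (3 for complex I, 3 for complex II, 11 for complex IV and 2 for complex V). The last, LOC114354362, carries the name of chain 5 of complex I, which is normally encoded by mitochondrial DNA, although the table places it on a nuclear scaffold (scaffold NW_021132286.1, 1366808 to 1367715).

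The insects were wild type, with no transgene and no treatment, and larvae were reared on artificial diet. The stages were whole-body pools of embryos, 1st, 3rd and 5th instar larvae, pupae and adults, with both sexes mixed in pupae and adults. Midgut, silk gland, fat body and hemolymph were dissected from 3rd instar larvae, again as pools of larvae. Each of the 10 groups had 3 RNA-seq libraries made from polyadenylated RNA, 30 in all, so that p-values measure the spread between pools of insects. Values are FPKM, fragments per kilobase of gene model and 1000000 fragments, which allows levels of genes of different length to be compared.

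Complex I takes electrons from NADH and complex II, which is succinate dehydrogenase and also an enzyme of the tricarboxylic acid cycle, takes them from succinate. Both pass them by way of ubiquinone to complex III (cytochrome b-c1) and then to complex IV (cytochrome c oxidase), which reduces oxygen. Complexes I, III and IV pump protons across the inner mitochondrial membrane, and complex V lets them back through its Fo ring while its F1 head makes ATP. Most subunits are encoded in the nucleus, a small set is encoded by mitochondrial DNA, and all subunits of complex II are nuclear. Insect flight muscle is known for densely packed mitochondria. Several animals, *Drosophila* among them, carry second copies of respiratory chain genes that are used in the testis.

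The libraries held 10908503 to 17774377 fragments assigned to gene models, as recovered from the deposited values. The deposited FPKM include a scaling between libraries that amounts to a factor of 0.447 to 2.42 on each library's size, largest in embryos and smallest in silk glands, so results are given on 2 scales: the deposited FPKM, and the same values rescaled to fragments per kilobase and 1000000 recovered fragments. The tissues carried their own markers (summed midgut markers 53779 to 81976 FPKM in midgut, silk gland markers 161424 to 192202 FPKM in silk gland, fat body markers 140606 to 183561 FPKM in fat body, hemocyte markers 3629.6 to 6166 FPKM in hemolymph). In 2 groups a library stood apart. Over the 80 members with a mean of at least 10 FPKM, the log2 deviation of 3rd instar replicate 3 from the other 2 libraries of its group had an SD of 0.73 between members, against 0.113 to 0.428 in the other 29 libraries. Its ratio to them ran from 0.0888 for LOC114350499, the NDUFA4 subunit of complex IV (97.6 FPKM, against 1349.8 and 848), to 2.003 for a complex IV assembly factor, COX20. In 5th instar replicate 1 the median of these 80 members was at a log2 of −0.79 from the other libraries of its group, and 18 of them were at no more than 0.5 of it, as were 19 in 3rd instar replicate 3. Comparisons with 3rd and 5th instar larvae are therefore also given without these libraries. Among 3rd instar larvae, replicate 2 held a summed midgut marker level of 11512 FPKM, against 475 FPKM in replicate 1 and 452 FPKM in replicate 3. The part of this difference in the members' levels was not tested.

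All 113 members had fragments in at least 1 library and 87 had fragments in every library. Members with a mean of at least 1 FPKM numbered 88 in embryos, 89 in 1st instar larvae, 91 in 3rd instar larvae, 112 in 5th instar larvae, 112 in pupae and 109 in adults, and 90 in midgut, 88 in silk gland, 90 in fat body and 87 in hemolymph. LOC114364985, a second model of the complex IV assembly protein COX15, was the member under 1 FPKM in 5th instar larvae, and LOC114357872, a second model of complex I subunit 8, the one in pupae. The median member stood at 19.3 FPKM in embryos, 94.4 in 1st, 106.7 in 3rd and 85.6 in 5th instar larvae, 26.3 in pupae and 60.9 in adults. Among tissues it was 69.9 FPKM in midgut, 59.8 in silk gland, 59.7 in fat body and 24.5 in hemolymph.

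The member with the highest mean was the ATP synthase lipid-binding protein LOC114353963 (scaffold NW_021132101.1, 608129 to 611354), which forms the proton-driven ring of Fo. Its FPKM were 306, 309.9 and 325 in embryos, 3753, 3348 and 3717 in 1st instar larvae, 5768, 3865 and 3904 in 3rd instar larvae, 1335, 3032 and 2685 in 5th instar larvae, 665, 608 and 693 in pupae and 1498, 2056 and 3018 in adults. Embryos and pupae lay below all other stages, with no overlap, on both scales. In tissues it had 1732, 2703 and 2028 FPKM in midgut, 1652, 2306 and 1828 in silk gland, 3759.8, 3725 and 3183 in fat body and 558, 544 and 544 in hemolymph, so that on this scale hemolymph was lowest and fat body highest without overlap. After rescaling silk gland (812, 1030.1 and 826) overlapped hemolymph (899, 959 and 934), and fat body (2036, 2042 and 1845) overlapped midgut (1675, 2102 and 2011).

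The highest members of the other complexes were likewise, by their means and on both scales, lowest in embryos, next lowest in pupae and higher in larvae and adults. Complex IV subunit 5A, LOC114357131 (scaffold NW_021133288.1, 45633 to 46830), averaged 101 ± 13.6 FPKM in embryos, 1684 ± 79.4 in 1st, 1490.1 ± 423 in 3rd and 1102 ± 316 in 5th instar larvae, 308 ± 39.6 in pupae and 962 ± 251 in adults (SD, n = 3 each). Complex III subunit 10, LOC114352385 (scaffold NW_021131584.1, 35243 to 35646), averaged 43.03 ± 3.503, 859.9 ± 88.2, 642 ± 371, 525 ± 118, 134 ± 7.09 and 789 ± 201 FPKM over the same 6 stages. The complex I accessory subunit A13, LOC114354627 (scaffold NW_021132340.1, 219151 to 220719), averaged 50.9 ± 10.4, 629 ± 46.03, 527 ± 316, 400.5 ± 94.7, 144 ± 13.8 and 493 ± 160.3 FPKM. Complex II stood lower, and its membrane anchor cytochrome b560, LOC114366746 (scaffold NW_021130921.1, 707007 to 708362), averaged 32.7 ± 3.99, 336 ± 36.5, 391 ± 118, 278 ± 106, 65.2 ± 6.85 and 172 ± 34.3 FPKM. None of these 5 members was called between neighbouring larval instars. LOC114366746 overlaps a gene on the other strand by 121 bases, and their fragments may not be told apart.

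Summed over subunits, complex V was the most abundant complex in every library (38.5 to 41.9% of all subunit FPKM in embryos, 36.7 to 37.9% in pupae and 35.6 to 37.9% in adults) and complex II the least. All members together took 0.607 to 0.665% of a library's fragments in embryos, 3.13 to 3.22% in 1st, 2.18 to 2.48% in 3rd and 1.55 to 2.02% in 5th instar larvae, 0.894 to 0.9997% in pupae and 1.53 to 1.87% in adults. These shares do not depend on the scaling, and they put embryos lowest, 1st instar larvae highest and pupae between embryos and every other stage. In tissues the shares were 1.41 to 1.64% in midgut, 0.561 to 0.647% in silk gland, 1.22 to 1.51% in fat body and 0.9401 to 1.08% in hemolymph. A lower level in a whole body or tissue may reflect fewer cells of a type or less RNA per cell, which cannot be told apart in bulk libraries.

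**Figure D1:**
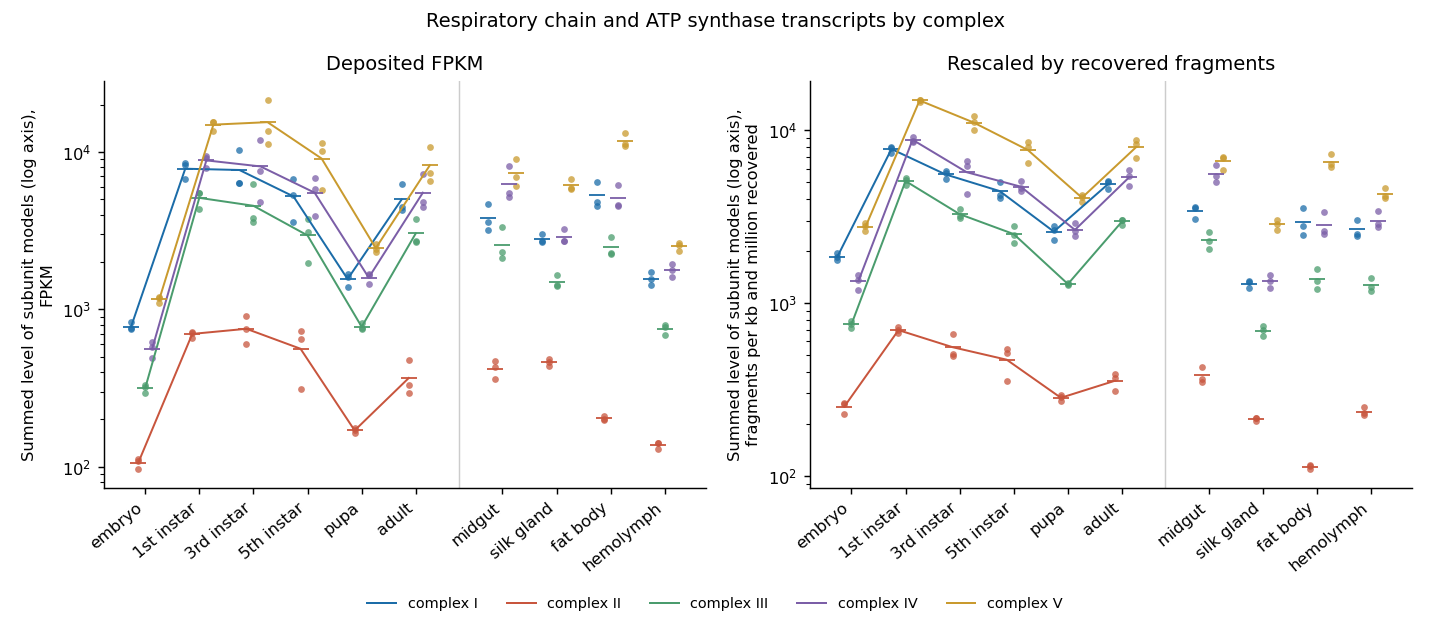
Summed level of the subunit models of each complex (y axis, log scale) in each group (x axis), as deposited FPKM on the left and as fragments per kilobase and 1000000 recovered fragments on the right. Points are libraries, bars are means of 3 libraries, and lines join the stages. Deposited complex V sums were 1157 ± 51.9 FPKM in embryos, 14945 ± 1092 in 1st instar larvae, 2450.1 ± 159 in pupae and 8254 ± 2255 in adults (SD, n = 3). Complex II is the lowest complex in every library.

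Members were tested between neighbouring stages and between pairs of tissues with limma on log2(FPKM + 1). A called member had a limma adjusted p (Benjamini-Hochberg, across every gene in the comparison) below 0.05 and a change of 2-fold or more. Fold changes are on that log2 scale with a pseudocount of 1, which understates the change of low genes. On the deposited scale the median gene hardly moved in any comparison (log2 fold change −0.07 to 0.14). After rescaling the median gene lay between −1.48 (silk gland over hemolymph) and 0.80 (midgut over silk gland), and medians of members are therefore also given relative to the median of all genes. Each first count of members stands beside the share of all genes called in the same comparison and direction, on the deposited scale, after rescaling or, for calls made on both scales, on both.

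The respiratory chain was higher in 1st instar larvae than in embryos as a whole. Of 89 members tested 79 rose and 1 fell, while 34.6% of all genes rose and 24.7% fell. The median member rose by a log2 of 3.31 (3.16 relative to the median of all genes; 3.04 relative to it after rescaling). After rescaling 63 of 90 members rose and 4 fell (22.7% of all genes higher and 48.6% lower), and 63 rose and 1 fell on both scales (23.9% of all genes higher and 24.7% lower). All tested subunits of complexes II (5), III (7) and IV (8) rose, as did 32 of 33 of complex I and 15 of 16 of complex V. By median log2 fold change complexes III and IV stood highest (4.02 and 3.99) and complex II lowest (2.76). Of the assembly factors 11 of 19 rose, with a median of 1.17, and after rescaling none of the 19 rose and 1 fell.

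Complex III subunit 8, LOC114366214 (scaffold NW_021130826.1, 528067 to 529184), had 789, 599.6 and 753 FPKM in 1st instar larvae, against 24.1, 29.5 and 30.6 FPKM in embryos (log2 fold change 4.62 ± 0.16 (SE), limma adjusted p = 8.55e-07). The largest rise belonged to a complex I accessory subunit, LOC114354590, a copy of subunit A6 that is described further on (5.97 ± 0.17 (SE), limma adjusted p = 4.23e-07). All its embryo libraries were under 1 FPKM, so it passed the filter on low genes only through 1st instar libraries. The one member that fell, LOC114354006, is a second copy of ATP synthase subunit g, with 0.356, 0.319 and 1.23 FPKM in 1st instar larvae and 10.1, 1.51 and 2.43 FPKM in embryos (−1.52 ± 0.55 (SE), limma adjusted p = 0.0361), and every embryo library lay above every 1st instar library. Without embryo replicate 1, or without 1st instar replicate 3, no member fell.

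Other genes of mitochondria and of fuel use were read beside the chain between embryo and 1st instar, and for several lists the calls depended on the scale. All 73 mitochondrial ribosomal protein genes were tested and 64 rose (median 1.69), 13 of them on both scales. Enzymes of the tricarboxylic acid cycle rose in 13 of 16 cases (median 2.46), and after rescaling in 12 with 2 lower. Glycolysis rose in 16 of 16 (median 2.77), and in 12 after rescaling. Protein import rose in 9 of 20 with 1 lower, and after rescaling in 5 with 4 lower and a median of −0.34. Cytochrome c with the adenine nucleotide and phosphate carriers rose in 4 of 4 (3 after rescaling). Muscle genes rose in 28 of 33 cases with 3 lower, and their summed level was 47299 to 65280.5 FPKM in 1st instar larvae and 136 to 695 FPKM in embryos (41 to 42 and 30 to 33 of 44 muscle genes detected). The part of muscle tissue in the change of the members was not tested.

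Between 3rd and 1st instar larvae few members were called. Of 90 tested, 1 rose in 3rd instar larvae and none fell (limma; at an unadjusted p under 0.05 also 1 and none), against 7.72% of all genes higher and 6.7% lower. The median member changed by a log2 of −0.12, and by 0.08 without 3rd instar replicate 3, and the rescaled data gave 1 higher and 2 lower (4.8% of all genes higher and 12.1% lower). After rescaling the median was −0.54, beside −0.35 for all genes. On both scales 1 rose and none fell (4.76% of all genes higher and 6.89% lower). The member that rose was again the subunit g copy LOC114354006, with 18.8, 6.37 and 14.1 FPKM in 3rd instar larvae and 0.356, 0.319 and 1.23 FPKM in 1st instar larvae (log2 fold change 3.04 ± 0.42 (SE), limma adjusted p = 0.00453, 2.65 ± 0.37 after rescaling). Its first copy LOC114353275 had 1369, 807 and 242 FPKM in 3rd instar larvae and 1089.8, 858 and 1036 FPKM in 1st instar larvae, a range that overlapped. The summed muscle level was 46838 to 121136 FPKM in 3rd and 47299 to 65280.5 FPKM in 1st instar larvae.

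In 5th instar larvae 18 of 111 members tested rose over 3rd instar larvae and none fell (limma; at an unadjusted p under 0.05 and 2-fold, 21 rose and 6 fell), with 6.81% of all genes higher and 4.08% lower. The calls did not follow the bulk of the chain, whose median member stood at a log2 of −0.42. After rescaling 19 rose and none fell (7.3% of all genes higher and 2.79% lower). Of these, 17 members rose on both scales, and none fell on both (6.46% of all genes higher and 2.59% lower), and 12 of those 17 were near-silent in the earlier stages, as described below. By definition those 12 averaged under 1 FPKM in 3rd instar larvae, and they passed the filter mainly through 5th instar libraries. Their calls therefore partly restate how they were grouped. The largest rises were those of a second copy of complex IV subunit 5B, LOC114351536 (scaffold NW_021131399.1, 314915 to 315971), with 9.19, 13.1 and 6.58 FPKM in 5th instar larvae, against 0, 1.03 and 0 FPKM in 3rd instar larvae (3.02 ± 0.38 (SE), limma adjusted p = 0.00544), and a second copy of ATP synthase subunit b, LOC114349908 (scaffold NW_021130962.1, 164340 to 165222), with 7.22, 7.91 and 8.59 FPKM in 5th instar larvae, against 0.245, 0.703 and 0.347 FPKM in 3rd instar larvae (2.65 ± 0.23 (SE), limma adjusted p = 0.00256). In both cases all 5th instar libraries lay above all 3rd instar libraries. Leaving out 1 library at a time gave 12 to 20 rising members, 12 without 5th instar replicate 2 and 13 without 3rd instar replicate 3. Dropping 5th instar replicate 1 left 16, and the median was then −0.18.

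Pupae had less of the chain than 5th instar larvae. Of 112 members tested 72 fell and 2 rose, against 12.4% of all genes lower and 7.82% higher, and the median member fell by a log2 of 1.64 (−1.67 relative to all genes, −1.52 after rescaling). On the deposited scale the calls reached every complex, with 30 of 42 subunits of complex I, 4 of 8 of complex II, 7 of 11 of complex III, 8 of 11 of complex IV and 15 of 21 of complex V. The size of the change depended on the scale: after rescaling 20 members fell, 22 rose and the median was −0.73 (6.53% of all genes lower and 35.4% higher), and 20 fell and 2 rose on both scales (6.88% of all genes lower and 7.86% higher). Without 5th instar replicate 1, on the deposited scale, 76 fell, 1 rose and the median was −1.82. The 2 that rose on both scales were second copies, LOC114351817 of cytochrome b560 of complex II, with 5.16, 6.34 and 4.59 FPKM in pupae, against 1.49, 2.398 and 2.18 FPKM in 5th instar larvae (1.08 ± 0.20 (SE), limma adjusted p = 0.00943), and LOC114356404 of ATP synthase subunit beta, with 18.8, 21.3 and 23.1 FPKM in pupae, against 10.2, 15.3 and 6.08 FPKM in 5th instar larvae (1.02 ± 0.31 (SE), limma adjusted p = 0.0459). The call of LOC114356404 was lost with no filter on low genes, with a replicate block and in 5 of 6 fits without 1 library.

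The largest falls were in the chain 5 model LOC114354362, with 146, 137 and 125 FPKM in pupae and 857, 2188 and 846 FPKM in 5th instar larvae (−3.09 ± 0.38 (SE), limma adjusted p = 0.00266), and in the A6 copy LOC114354590, with 11.2, 15.3 and 13.8 FPKM in pupae and 89.3, 92.6 and 64.3 FPKM in 5th instar larvae (−2.52 ± 0.21 (SE), limma adjusted p = 0.000931). Mitochondrial ribosomal proteins fell in 21 of 73 cases on the deposited scale and in none of 73 after rescaling. The tricarboxylic acid cycle fell in 11 of 21 cases, and after rescaling in 7 with 4 higher. Glycolysis fell in 12 of 19 with 1 higher, and after rescaling in 8 with 4 higher. Summed muscle genes stood at 6311 to 8264 FPKM in pupae and 21769 to 56139.6 FPKM in 5th instar larvae. Summed midgut markers were 297 to 762 FPKM in pupae and 1658 to 4460.5 FPKM in 5th instar larvae (16 of 25 tested lower, 1 higher), and silk gland markers 74.3 to 182 FPKM in pupae and 708 to 11323 FPKM in 5th instar larvae (4 of 4 lower). The part of these tissues in the fall of the members was not tested.

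Adults had more of the chain than pupae. Of 111 members tested 69 rose and 8 fell, against 21.9% of all genes higher and 25% lower, and the median member rose by a log2 of 1.33 (1.40 relative to all genes, 1.36 after rescaling). After rescaling 30 members rose and 22 fell (11.1% of all genes higher and 41.8% lower), and 30 rose and 8 fell on both scales (11.8% of all genes higher and 25.1% lower). Rises reached 26 of 41 tested subunits of complex I, 7 of 11 of complex III, 8 of 11 of complex IV and 13 of 21 of complex V. Complex II was split, with 3 of 8 higher and 3 of 8 lower on the deposited scale and none higher and 4 lower after rescaling. Assembly factors rose in 12 of 18 cases with 1 lower (3 and 1 after rescaling) and mitochondrial ribosomal proteins in 44 of 73 (15 after rescaling, with 1 lower). The largest rise was that of an ATP synthase subunit gamma copy, LOC114355826 (scaffold NW_021132805.1, 767808 to 774166), with 134, 231 and 197 FPKM in adults, against 32.4, 25.3 and 22.6 FPKM in pupae (2.74 ± 0.24 (SE), limma adjusted p = 0.000131), followed by the A6 copy LOC114354590 with 75.8, 85.4 and 119 FPKM in adults and 11.2, 15.3 and 13.8 FPKM in pupae (2.69 ± 0.22 (SE), limma adjusted p = 9.52e-05). Both stood clear of the pupal libraries. Summed muscle genes were 11183 to 14823 FPKM in adults and 6311 to 8264 FPKM in pupae, and 9 of 37 tested rose with 2 lower; their part in the rise was not tested.

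**Figure D2:**
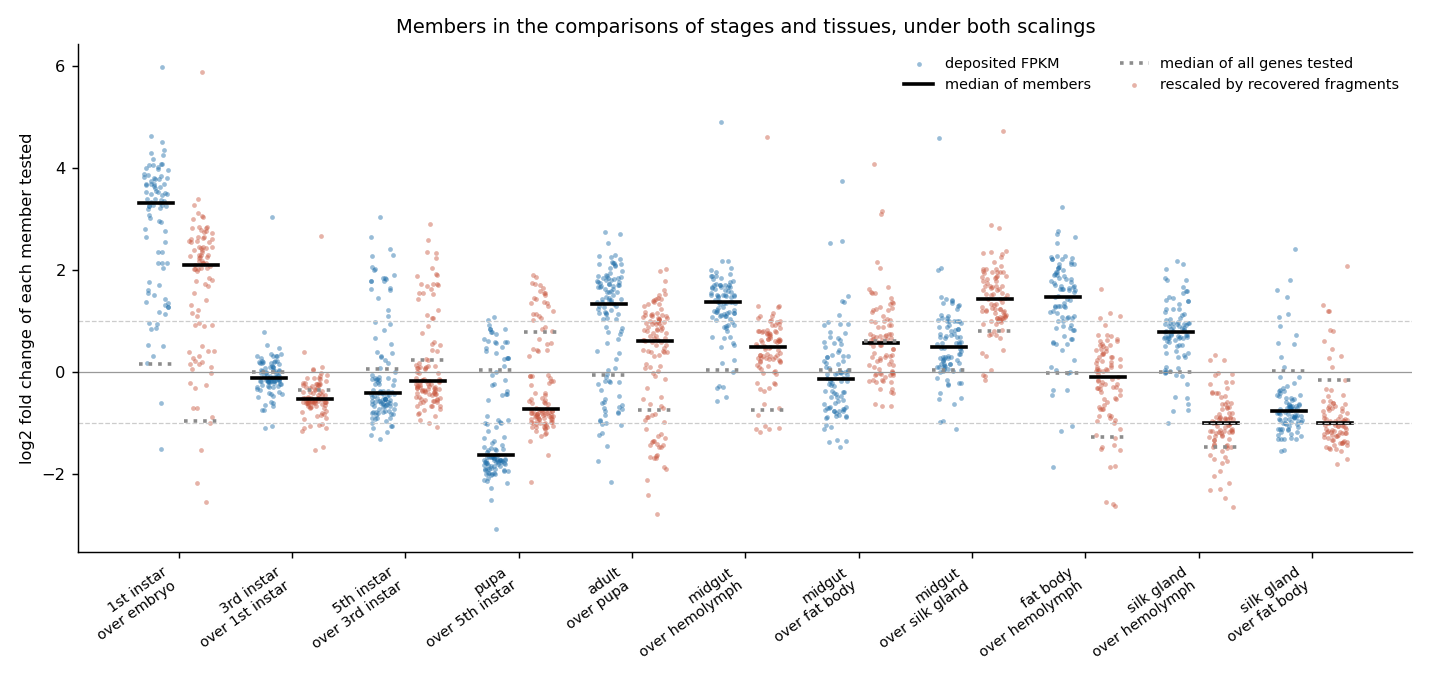
Log2 fold change of each tested member (points) in the 11 comparisons (x axis), on the deposited scale (blue) and after rescaling by recovered fragments (red). Black bars are medians of members and dotted bars medians of all genes tested; dashed lines mark a 2-fold change. The members' median lies above the median of all genes in 1st instar larvae over embryos and in adults over pupae, and below it in pupae over 5th instar larvae, on both scales. In midgut over fat body, fat body over hemolymph and silk gland over hemolymph the sign of the members' median turns with the scale.

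The 113 members included 28 subunit names given to more than 1 model, 59 models in all. Ranked by mean FPKM, 31 were lower-ranked copies. A group of 19 members had a mean under 1 FPKM in embryos, 1st and 3rd instar larvae and all 4 tissues but reached 1 FPKM in 5th instar larvae, pupae or adults, and 18 of these 19 were lower-ranked copies; the 19th, LOC114354761, was the only model named complex III subunit 1. They came from all complexes: 9 from complex I, 3 from II, 3 from III, 1 from IV and 3 from V. Of the 19, 15 were highest in pupae, 2 in adults and 2 in 5th instar larvae. With rescaled values 18 met the same limits. Since the group was defined by these levels, the levels are a description with no test.

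Their summed level was 0.967 to 1.47 FPKM in embryos, 0.184 to 2.80 in 1st and 2.95 to 11.8 in 3rd instar larvae, 57.9 to 93.9 in 5th instar larvae, 93.5 to 121 in pupae and 42.5 to 80.6 in adults. In tissues it was 1.47 to 1.74 FPKM in midgut, 0.443 to 0.654 in silk gland, 0.773 to 3.16 in fat body and 0.577 to 1.02 in hemolymph. They remained a small part of the chain, at 1.34% to 1.98% of subunit FPKM in pupae, 0.256% to 0.372% in 5th instar larvae and 0.232% to 0.30% in adults. Single members differed in how they left the pupal level. The copy of complex III subunit 8, LOC114366208 (scaffold NW_021130826.1, 497632 to 499884), fell to 0.309, 0 and 0.282 FPKM in adults, against 4.17, 4.31 and 4.48 FPKM in pupae (−2.16 ± 0.18 (SE), limma adjusted p = 0.000113). All its adult libraries were under 1 FPKM, so it passed the filter only through pupal libraries. Its p-value therefore partly restates the filter. The copy of complex IV subunit 5B, LOC114351536, had 4.84, 9.71 and 7.76 FPKM in adults and 16.2, 18.3 and 11.5 FPKM in pupae, and the copy of complex I iron-sulfur protein 4, LOC114351252, had 3.13, 5.28 and 6.97 FPKM in adults and 5.2, 5.999 and 5.86 FPKM in pupae. The adult libraries lay below the pupal ones for LOC114351536 and overlapped them for LOC114351252. Over the whole group 4 of 18 tested members were called lower in adults than in pupae and none higher, beside 25% of all genes lower and 21.9% higher. The group was defined by its levels, so this count is a description.

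Of the 18 late copies, 3 lie on the scaffold of their first copy. LOC114351252 (scaffold NW_021131351.1, 388384 to 389746) is 283 bases from its first copy LOC114351246, and LOC114361873 (scaffold NW_021136271.1, 48118 to 50637), a copy of complex I iron-sulfur protein 5, is 629 bases from LOC114361868. LOC114366208 is 28182 bases from its first copy LOC114366214, with 5 gene models between them. The other late copies lie on other scaffolds than their first copies. The median gene model length was 809.5 bases for the 18 late copies and 791.5 bases for their first copies, and 11 of the 18 were shorter. Some late models overlap other genes: LOC114355182, the copy of the succinate dehydrogenase iron-sulfur subunit, LOC114349830 and LOC114361820 overlap a gene on the same strand along their whole length, so the assignment of their fragments is uncertain. LOC114356387 lies within 2 models on the other strand, of which 1 averaged 26.9 FPKM.

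Some members lay just outside these limits. ATP synthase beta copy LOC114356404 had 10.2, 15.3 and 6.08 FPKM in 5th instar larvae, 18.8, 21.3 and 23.1 in pupae and 15.5, 20.3 and 23.1 in adults, but averaged over 1 FPKM in 3rd instar larvae (1.51, 1.805 and 0.5698). The gamma model of rank 3, LOC114350196, had 3.69, 9.603 and 7.01 FPKM in pupae and missed the limits through fat body (1.396, 2.1 and 2.07 FPKM). Cytochrome c oxidase subunit 6b-2, LOC114359840, had 5.78, 5.57 and 8.79 FPKM in 5th instar larvae, 12.2, 13.4 and 12.02 in pupae and 23.2, 11.5 and 17.9 in adults, and it missed them through embryos (3.93, 2.22 and 0.897 FPKM) and midgut (2.56, 1.83 and 1.72 FPKM). It overlaps the end of the far more abundant subunit 6B1 gene LOC114359839 by 10 bases on the other strand.

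A list of 16 testis and sperm genes, chosen after the pattern was seen, was read beside them. Its 4 testis-specific kinases summed to 4.92 to 6.32 FPKM in embryos, 7.46 to 12.1 in 1st and 6.84 to 17.2 in 3rd instar larvae, 51.9 to 71.7 in 5th instar larvae, 116 to 157 in pupae and 87.5 to 155 in adults. In midgut the sum was 9.58 to 14.2 FPKM, and in the other tissues 1.67 to 6.95 FPKM, most of it from LOC114355265. Of the list, 11 of 13 tested genes rose in 5th over 3rd instar larvae and none fell, beside 6.81% of all genes higher and 4.08% lower. Most listed genes averaged under 1 FPKM in 3rd instar larvae, so they could pass the filter mainly through 5th instar libraries. As the list was chosen after the pattern was seen, its count is a description. The sexes were mixed in pupae and adults and no gonad was sampled, so that the part of testis in the levels of the late members was not tested.

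**Figure D3:**
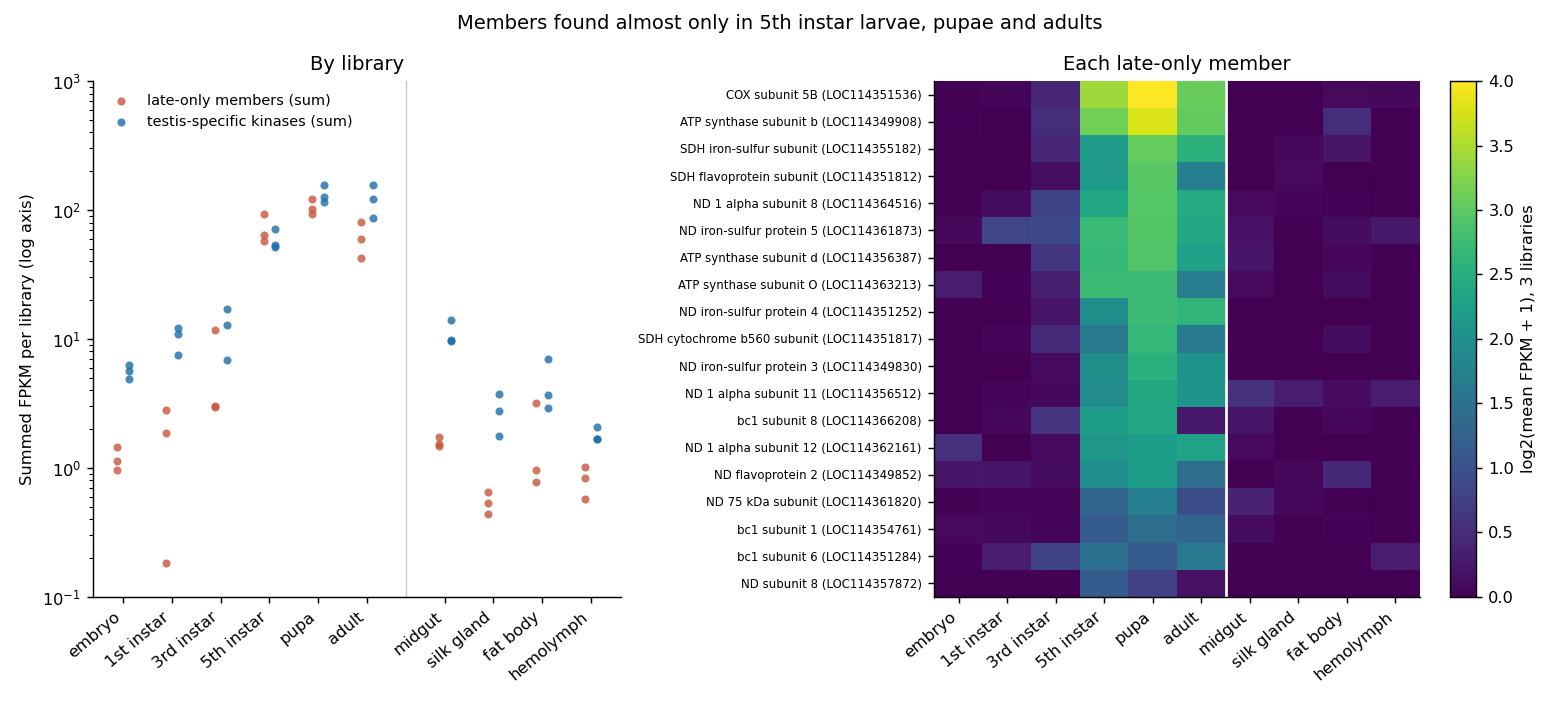
Left: summed FPKM of the 19 late members (red) and of 4 testis-specific kinases (blue) in each library (y axis, log scale), by group. Right: each late member (rows) in each group (columns), colour giving log2(mean FPKM + 1) over 3 libraries. The late members sum to 93.5 to 121 FPKM in pupae and to at most 11.8 FPKM in any library of the earlier stages or tissues.

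Some copies present in all groups also made up different shares of their pair in adults and in pupae. The subunits compared here were chosen after their values were seen, and the shares are a description within each library that does not depend on scaling. The second succinate dehydrogenase flavoprotein, LOC114352556, made up 0.995% to 6.68% of the first and second copies in adults and 20.6% to 25.9% in pupae. The flavoprotein carries the site that oxidises succinate. The second copy had 4.08, 1.399 and 1.17 FPKM in adults, against 6.98, 8.69 and 12.1 FPKM in pupae (−1.75 ± 0.37 (SE), limma adjusted p = 0.00509), while the first copy LOC114354984 had 56.95, 83.4 and 116 FPKM in adults, against 26.9, 28.3 and 34.6 FPKM in pupae (1.43 ± 0.27 (SE), limma adjusted p = 0.00281). The fall of the second copy held after rescaling (−2.43 ± 0.40), whereas the rise of the first was under 2-fold (0.70 ± 0.23).

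The alpha subunit of ATP synthase also had a smaller share from its second copy in adults. The second copy LOC114351019 made up 16.9% to 20.95% in adults and 44.4% to 46.4% in pupae, with 47.5, 48.02 and 70.7 FPKM in adults and 58.3, 64.4 and 67.2 FPKM in pupae (log2 fold change −0.21 ± 0.19 (SE), limma adjusted p = 0.368). The first copy LOC114351008, 6874 bases away on the same scaffold, had 179, 232 and 349 FPKM in adults and 72.99, 74.3 and 84.1 FPKM in pupae (1.65 ± 0.25 (SE), limma adjusted p = 0.00109), a rise that was under 2-fold after rescaling (0.90 ± 0.19). In complex I, the second copy of the 75 kDa subunit, LOC114353767, made up 10.3% to 24.5% in adults and 38.5% to 42.4% in pupae, with 3.59, 2.23 and 2.52 FPKM in adults and 7.67, 6.698 and 8.37 FPKM in pupae (−1.19 ± 0.22 (SE), limma adjusted p = 0.00256), and its first copy LOC114355448 had 11.1, 19.5 and 20.9 FPKM in adults and 12.2, 9.26 and 11.3 FPKM in pupae (0.56 ± 0.27 (SE), limma adjusted p = 0.101), which was not called and had the other sign after rescaling (−0.14 ± 0.28). The second copy of iron-sulfur protein 2, LOC114355334, made up 15.2% to 20.98% in adults and 43.1% to 46.5% in pupae, with 7.12, 6.21 and 9.09 FPKM in adults and 14.5, 8.902 and 15.8 FPKM in pupae (−0.71 ± 0.26 (SE), limma adjusted p = 0.046).

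ATP synthase subunit gamma, the rotating shaft of F1, went the other way. Its second copy LOC114355826 made up 40.7% to 57.4% in adults and 22.8% to 24.9% in pupae. The first copy LOC114355825, 405 bases away, had 139, 172 and 287 FPKM in adults and 103, 85.7 and 67.9 FPKM in pupae (1.16 ± 0.29 (SE), limma adjusted p = 0.0105, 0.42 ± 0.25 after rescaling). For all 5 subunits the adult and pupal shares did not overlap, but these subunits were chosen after their values were seen. Most other pairs of copies also did not overlap between these stages, nearly all with a smaller second share in adults. The difference is therefore not particular to these 5 subunits. The A6 pair of complex I, described below, had a larger second share in adults. The pairs of complex I subunit A8, complex III subunit 6 and COX15 overlapped. Outside adults, the second copies of the 75 kDa, iron-sulfur 2 and alpha subunits held the larger share of their pair in embryos (59.2% to 62.8%, 55.9% to 62.1% and 62.4% to 65.5%) and in hemolymph (58.3% to 61.4%, 52.1% to 63.4% and 57.2% to 63.7%). Shares also ranged widely within some groups. In midgut they ran from 6.16% to 20.4% (flavoprotein), 16.8% to 42.2% (75 kDa), 28.4% to 45.98% (iron-sulfur 2) and 28.9% to 45.7% (alpha). Each was lowest in midgut replicate 2. How fragments were divided between copies was not tested. The first and second models also differ in length. They have 1380 and 1769 bases (flavoprotein), 2190 and 1432 (75 kDa), 743 and 1030 (iron-sulfur 2), 2469 and 2036 (alpha) and 1402 and 1143 (gamma). Whether the 2 models of a pair are separate genes or parts of 1 gene was not tested.

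**Figure D4:**
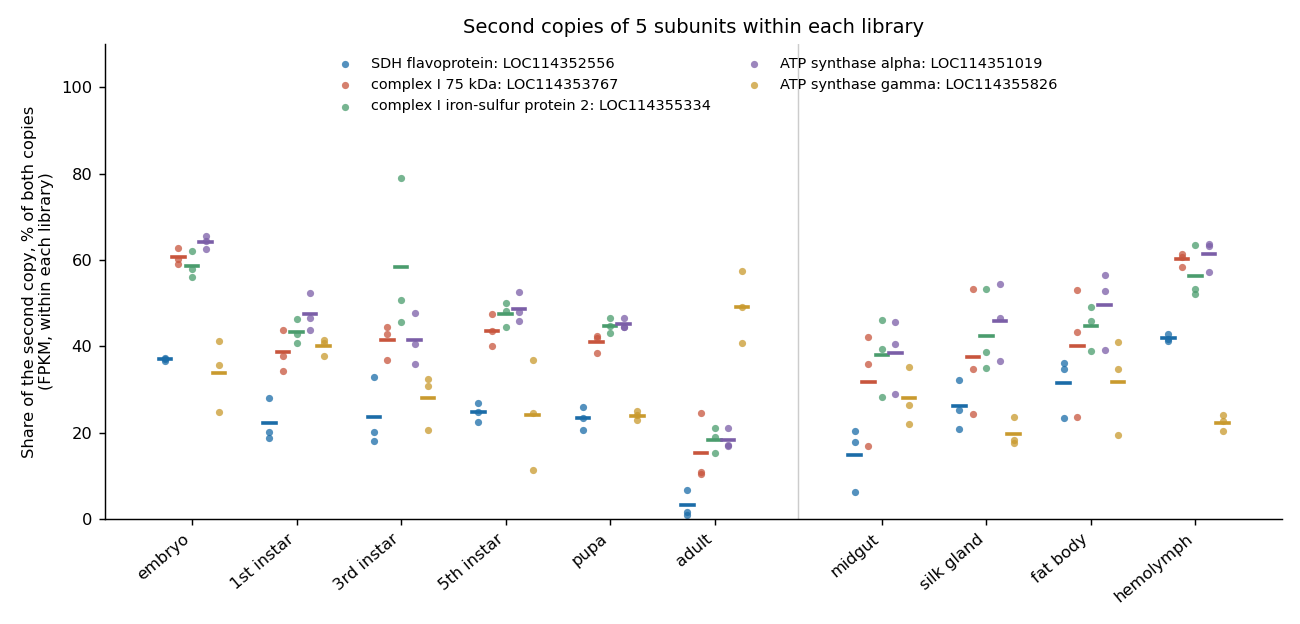
Share of the second copy in the summed FPKM of the first and second copies of 5 subunits (y axis, percent) in each group (x axis). Points are libraries and bars are means of 3 libraries. The second flavoprotein copy LOC114352556 lies at 0.995% to 6.68% in adults and the second gamma copy LOC114355826 at 40.7% to 57.4%, each outside the range of pupae.

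The A6 copy LOC114354590 (scaffold NW_021130433.1, 253567 to 257117) had the largest rise of any member in 4 of the 11 comparisons. A6 is an accessory subunit of complex I. The 2 copies are adjacent, 125 bases apart. LOC114354590 made up 34.7% to 38.4% of the pair in adults and 16.7% to 23.4% in pupae, without overlap. In tissues LOC114354590 had 33.9, 50.8 and 24.98 FPKM in midgut, 0.332, 0.0808 and 1.34 in silk gland, 2.18, 1.93 and 1.09 in fat body and 0.246, 0.194 and 0.195 in hemolymph, and midgut stood above every other tissue without overlap. It rose in midgut over hemolymph (4.90 ± 0.26 (SE), limma adjusted p = 1.99e-06), over fat body (3.75 ± 0.31 (SE), limma adjusted p = 5.98e-05) and over silk gland (4.59 ± 0.38 (SE), limma adjusted p = 5.04e-05), and all 3 calls held after rescaling (4.59 ± 0.22, 4.08 ± 0.24 and 4.72 ± 0.26). In stages it was at 0.0372, 0.0256 and 0.0965 FPKM in embryos and 73.9, 54.1 and 68.99 FPKM in 1st instar larvae. All hemolymph and embryo libraries were under 1 FPKM, so there it passed the filter only through midgut or 1st instar libraries. Against silk gland it passed mainly through midgut libraries. These p-values therefore partly restate the filter. The first copy LOC114354599 was present everywhere, with 21.1, 25.3 and 29.9 FPKM in embryos, 117, 166 and 111 in midgut, 70.9, 86.4 and 74.3 in silk gland, 160.4, 203 and 146 in fat body and 59.1, 73.1 and 57.3 in hemolymph. The model of LOC114354590 is 2250 bases long, against 713 for its first copy.

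Among the larval tissues, midgut had more of the chain than hemolymph, with most of the calls on the deposited scale only. Of 89 members tested 68 rose and none fell (limma; none fell at an unadjusted p under 0.05 either), against 25.3% of all genes higher and 17.9% lower, and the median member was higher by a log2 of 1.36 (1.33 relative to all genes, 1.23 after rescaling). After rescaling 9 rose and 3 fell (16.4% of all genes higher and 39.7% lower), and 9 rose and none fell on both scales (17.1% of all genes higher and 17.9% lower). All 7 complex III and all 9 complex IV subunits tested rose on the deposited scale, with 24 of 32 of complex I, 4 of 5 of complex II and 12 of 16 of complex V. The first succinate dehydrogenase flavoprotein LOC114354984 had 91.6, 141 and 114 FPKM in midgut and 25.9, 22.7 and 24.8 FPKM in hemolymph (2.17 ± 0.18 (SE), limma adjusted p = 2.86e-05), a call that held after rescaling (1.30 ± 0.14). The second COX15 model LOC114364985, which helps to make the heme of complex IV, had 5.13, 7.79 and 6.54 FPKM in midgut, against 1.13, 1.55 and 1.204 FPKM in hemolymph (1.69 ± 0.20 (SE), limma adjusted p = 0.000207). Muscle genes summed to 3929 to 5226 FPKM in midgut (38 to 40 of 44 detected), 560.1 to 719 FPKM in silk gland, 405 to 867 FPKM in fat body and 126 to 162 FPKM in hemolymph, and their part in the tissue differences was not tested.

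Most members were called higher in fat body than in hemolymph on the deposited scale, and few were after rescaling. Of 89 members tested 61 rose and 2 fell, against 23.3% of all genes higher and 16.5% lower, with a median log2 fold change of 1.46. After rescaling 4 of 87 rose, 11 fell (10.2% of all genes higher and 59.7% lower) and the median was −0.11; relative to the median of all genes the values were 1.48 and 1.17. On both scales 4 rose and 2 fell (10.6% of all genes higher and 17% lower). The summed level of all members stayed higher after rescaling, at 13768 to 17089 in fat body and 11250.2 to 13517 in hemolymph. The chain 5 model LOC114354362 had 2176, 1759 and 633 FPKM in fat body and 145, 174 and 116 FPKM in hemolymph (3.22 ± 0.44 (SE), limma adjusted p = 0.000697), and ATP synthase alpha LOC114351008 had 408, 427 and 386 FPKM in fat body and 68.8, 52.9 and 57.6 FPKM in hemolymph (2.75 ± 0.17 (SE), limma adjusted p = 1.29e-05), and both held after rescaling. The 2 that fell, a subunit and an assembly factor of complex II, are given below. Glycolysis rose in 15 of 16 cases (7 after rescaling).

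Silk gland compared with hemolymph depended on the scale throughout. On the deposited scale 25 of 87 members rose and 1 fell, against 21.3% of all genes higher and 18.8% lower, with a median log2 fold change of 0.78. After rescaling none rose, 46 fell (7.88% of all genes higher and 67.6% lower) and the median was −1.02; relative to the median of all genes it was 0.80 and 0.47. One member fell and none rose on both scales (8.2% of all genes higher and 19.5% lower). It was LOC114366799, an assembly factor of the F1 head, with 5.41, 6.495 and 10.2 FPKM in silk gland and 16.5, 16.3 and 13.5 FPKM in hemolymph (−1.01 ± 0.24 (SE), limma adjusted p = 0.00903). The flavoprotein LOC114354984 had 96.95, 129 and 115 FPKM in silk gland and 25.9, 22.7 and 24.8 FPKM in hemolymph (2.16 ± 0.16 (SE), limma adjusted p = 2.28e-05), and the chain 5 model 649, 901 and 403 FPKM in silk gland and 145, 174 and 116 FPKM in hemolymph (2.10 ± 0.30 (SE), limma adjusted p = 0.000732). Neither call was kept after rescaling (0.33 ± 0.15 and 0.24 ± 0.30).

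Midgut against silk gland gave 16 of 90 members higher and 1 lower, with 20.8% of all genes higher and 16.6% lower, and a median log2 fold change of 0.48. After rescaling 71 of 89 rose and none fell (41.5% of all genes higher and 8.2% lower), with a median of 1.42 and 16 higher and none lower on both scales (22.3% of all genes higher and 8.2% lower); relative to the median of all genes the values were 0.45 and 0.62. Assembly factors rose in 9 of 19 cases and complex IV subunits in 4 of 9, and complex I subunits in 1 of 32. The largest of these after the A6 copy was LOC114351041, complex IV assembly factor 6, with 43.4, 60.1 and 48.2 FPKM in midgut, against 8.32, 16.8 and 10.8 FPKM in silk gland (2.03 ± 0.27 (SE), limma adjusted p = 0.000678). The member that fell, the second flavoprotein LOC114352556, had 19.8, 9.27 and 29.2 FPKM in midgut and 45.9, 33.9 and 38.99 FPKM in silk gland (−1.12 ± 0.38 (SE), limma adjusted p = 0.0463), and lost its call with no filter, with a pseudocount of 0.1, without either of midgut replicates 1 and 2 or any silk gland replicate, and after rescaling (−0.17 ± 0.45). Without midgut replicate 2 the higher calls were 10.

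Silk gland had less of the chain than fat body. Of 90 members 22 fell and 5 rose, against 18.4% of all genes lower and 15.1% higher, with a median of −0.77 (−0.78 relative to all genes, −0.84 after rescaling). After rescaling 41 fell and 3 rose (22.2% of all genes lower and 12.2% higher), and 21 fell and 3 rose on both scales (19.8% of all genes lower and 12.2% higher). Without fat body replicate 2 the lower calls were 12. The complex I accessory subunit B2, LOC114363990, had 72.8, 99.05 and 115 FPKM in silk gland and 228, 355 and 267 FPKM in fat body (−1.56 ± 0.26 (SE), limma adjusted p = 0.00283), and assembly factor LOC114351041 had 8.32, 16.8 and 10.8 FPKM in silk gland and 37.3, 43.2 and 27.6 FPKM in fat body (−1.54 ± 0.31 (SE), limma adjusted p = 0.00618). All called subunits outside complex II were lower: 8 of 32 in complex I, 2 of 8 in complex III, 1 of 8 in complex IV and 6 of 17 in complex V. Glycolysis was lower in 16 of 16 cases on both scales.

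Midgut and fat body gave the fewest called members of any pair of tissues on the deposited scale. Of 91 members 6 rose in midgut and 5 fell, against 18.3% of all genes higher and 16% lower, and the median was −0.15 (0.56 after rescaling, −0.18 and −0.04 relative to the medians of all genes). After rescaling 22 of 90 rose and none fell (32.9% of all genes higher and 11.1% lower), and 6 rose and none fell on both scales (19.6% of all genes higher and 11.1% lower). The lower calls included ATP synthase alpha LOC114351019 with 145, 121 and 199 FPKM in midgut and 262, 555 and 432 FPKM in fat body (−1.38 ± 0.33 (SE), limma adjusted p = 0.0121), lost after rescaling (−0.68 ± 0.37), and the gamma model of rank 3 LOC114350196, with 0, 0.0539 and 0 FPKM in midgut and 1.396, 2.1 and 2.07 FPKM in fat body (−1.48 ± 0.21 (SE), limma adjusted p = 0.00117), which was not tested after rescaling. LOC114350196 passed the filter only through fat body libraries, so its p-value partly restates the filter. Without fat body replicate 2 the median was 0.03 and the lower calls were 3, as they were without midgut replicate 1. Glycolysis was lower in midgut in 15 of 16 cases (11 on both scales).

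The proportions of the complexes within each library do not depend on the scaling and are given as a description. Complex IV made up 29.2 to 31.8% of subunit FPKM in midgut, 20.5 to 21.5% in silk gland, 19.8 to 21.3% in fat body and 25.8 to 26.7% in hemolymph. Complex V made up 35.2 to 37.1% in midgut, 44.6% in silk gland, 45.7 to 49.3% in fat body and 36.5 to 38.02% in hemolymph. The midgut libraries lay above all others for complex IV and the fat body libraries above all others for complex V.

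Complex II had its smallest share in fat body, a description with no test. Its subunits made up 0.687 to 0.911% of subunit FPKM in fat body, against 1.83 to 2.31% in midgut, 3.18 to 3.49% in silk gland and 1.95 to 2.099% in hemolymph. The iron-sulfur subunit LOC114366317 (scaffold NW_021130859.1, 28196 to 29881), which hands electrons from the flavoprotein to ubiquinone, had 64.1, 62.02 and 68.6 FPKM in midgut, 63.4, 59.7 and 52.6 in silk gland, 8.51, 12.5 and 9.98 in fat body and 25.4, 21.9 and 20.8 in hemolymph. Every fat body library lay below every library of the other tissues. It was higher in midgut over fat body (2.55 ± 0.21 (SE), limma adjusted p = 4.98e-05) and in silk gland over fat body (2.40 ± 0.22 (SE), limma adjusted p = 0.000135) and lower in fat body over hemolymph (−1.07 ± 0.21 (SE), limma adjusted p = 0.00351), and these calls held after rescaling (3.16 ± 0.22, 2.07 ± 0.23 and −2.56 ± 0.20).

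The small cytochrome b anchor LOC114366277 had 49.1, 69.3 and 50.4 FPKM in midgut, 60.6, 74.8 and 60.6 in silk gland, 19.1, 27.2 and 17.5 in fat body and 23.2, 21.5 and 18.6 in hemolymph. It was higher in midgut over fat body (1.37 ± 0.25 (SE), limma adjusted p = 0.00353) and in silk gland over fat body (1.59 ± 0.24 (SE), limma adjusted p = 0.00162). The first flavoprotein LOC114354984 had 55.6, 35.6 and 32.8 FPKM in fat body and was higher in midgut (1.48 ± 0.27 (SE), limma adjusted p = 0.00396) and in silk gland (1.47 ± 0.26 (SE), limma adjusted p = 0.00367). The second flavoprotein LOC114352556 had 45.9, 33.9 and 38.99 FPKM in silk gland and 17.04, 18.9 and 18.6 FPKM in fat body (1.07 ± 0.21 (SE), limma adjusted p = 0.00549), a call that was lost after rescaling (0.79 ± 0.22) and, at 0.97, without silk gland replicate 1. The b560 anchor LOC114366746 had 137, 186 and 170.5 FPKM in midgut, 172, 185 and 194 in silk gland and 108, 105 and 121 in fat body, and was called in neither comparison on the deposited scale (0.55 ± 0.20 (SE), limma adjusted p = 0.0595, and 0.72 ± 0.18 (SE), limma adjusted p = 0.0177 with a change under 2-fold).

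LOC114350417 (scaffold NW_021131129.1, 103643 to 104517), a complex II assembly factor named 2-B, a kind of protein that in yeast and humans helps to attach FAD to the flavoprotein, had 41, 56.2 and 37.7 FPKM in midgut, 7.63, 11.5 and 12.8 in silk gland, 7.09, 8.18 and 5.61 in fat body and 17.1, 15.9 and 16.9 in hemolymph. It was higher in midgut over fat body (2.52 ± 0.24 (SE), limma adjusted p = 0.000119) and over silk gland (1.99 ± 0.25 (SE), limma adjusted p = 0.000497), and lower in fat body over hemolymph (−1.16 ± 0.20 (SE), limma adjusted p = 0.00192), each on both scales. Over all tissues the complex II subunits called on both scales were 3 of 5 higher in midgut and 3 of 5 higher in silk gland over fat body, while complex V had none higher in either comparison. Of all genes, 19.6% were higher on both scales in midgut over fat body and 12.2% in silk gland over fat body.

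**Figure D5:**
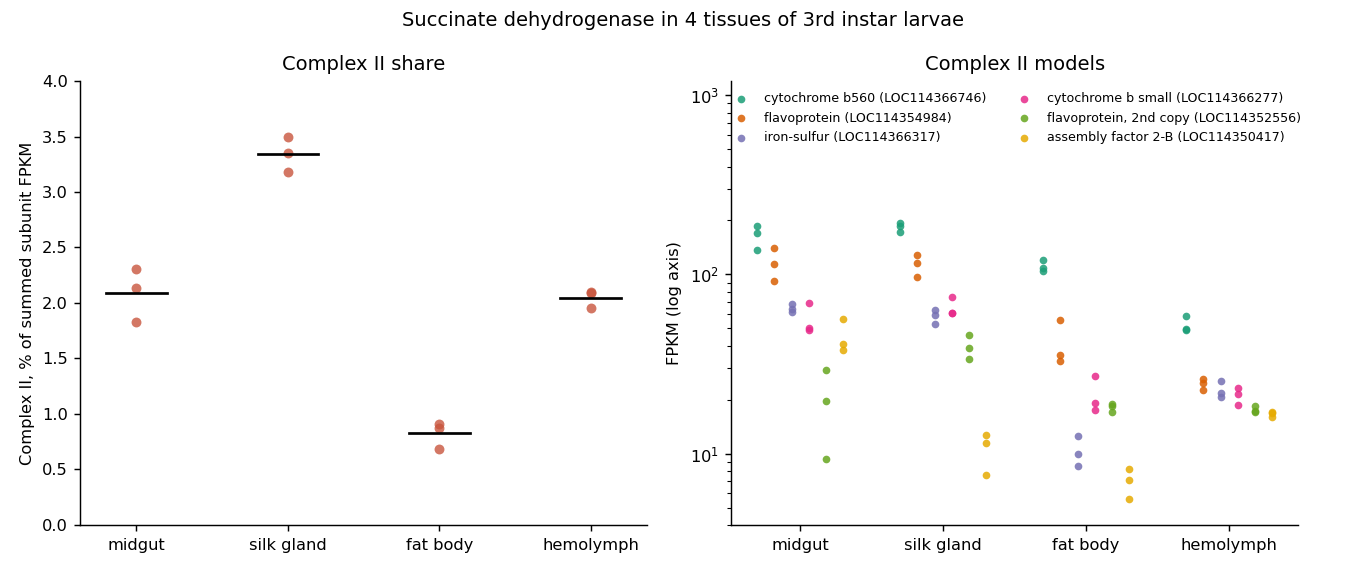
Left: share of complex II in the summed FPKM of all subunit models (y axis, percent) in the 4 larval tissues, with points for libraries and bars for means of 3. Right: FPKM (log axis) of the main complex II subunits and of assembly factor 2-B in each library. The fat body libraries lie at 0.687 to 0.911%, below all libraries of the other tissues, and the iron-sulfur subunit is lowest there.

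Assembly factors stood highest relative to the subunits in embryos. Their summed FPKM came to 8.198 to 9.21% of the subunit sum in embryos, 1.64 to 1.71% in 1st, 1.27 to 2.46% in 3rd and 1.69 to 2.51% in 5th instar larvae, 2.97 to 3.52% in pupae and 1.67 to 3.12% in adults. In tissues the figure was 2.51 to 2.81% in midgut, 1.99 to 2.102% in silk gland, 1.33 to 1.48% in fat body and 3.51 to 3.62% in hemolymph. Embryos lay above every other group and fat body below every other tissue.

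The 13 protein genes of the mitochondrial genome, which are not members, were read beside the nuclear chain. COX1, the catalytic core of complex IV, averaged 811 ± 269 FPKM in embryos, 10926 ± 1785 in 1st, 18848 ± 9023 in 3rd and 29626 ± 16920 in 5th instar larvae, 3286 ± 92.6 in pupae and 8850 ± 2229 in adults (SD, n = 3 each). Of these genes 10 of 10 tested rose in 1st instar larvae over embryos, 11 of 12 fell in pupae over 5th instar larvae and 10 of 10 rose in adults over pupae; on both scales the counts were 10, 11 and 5. Their sum relative to the sum of the members was 0.547 to 1.01 in embryos, 0.939 to 1.12 in 1st, 1.09 to 2.82 in 3rd and 2.27 to 4.44 in 5th instar larvae, 1.36 to 1.67 in pupae and 1.33 to 1.65 in adults. The libraries were made from polyadenylated RNA, and how well that captures mitochondrial transcripts was not tested.

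The chain 5 gene of the mitochondrial genome itself, ND5, averaged at most 0.586 FPKM in any group, while the scaffold model LOC114354362 that carries its name had 21.2 to 2188 FPKM over the 30 libraries. Its stage pattern was 21.2, 38.3 and 40.3 FPKM in embryos, 545, 397 and 499 in 1st, 619, 597 and 561 in 3rd and 857, 2188 and 846 in 5th instar larvae, 146, 137 and 125 in pupae and 211, 125 and 162 in adults. The adult and pupal ranges overlapped (0.25 ± 0.21 (SE), limma adjusted p = 0.331). How fragments were divided between the 2 models was not tested, so the level of either is uncertain.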

How the data were processed

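RNA was measured in 30 libraries of 10 groups, 3 each. Per the study's methods, reads were cleaned with fastp and aligned with HISAT2 (version 2.0.5 in the submitters' processing notes) to the *O. furnacalis* genome, and RSEM was named for expression. For the program that counted whole fragments, no name is given in the sources used. The deposited values are FPKM made by the authors, and they include a scaling between libraries. Multiplied by gene length, 100% of the low values tested were whole multiples of 1 step per library (tolerance 0.02), which gave 10908503 to 17774377 fragments per library and the rescaled values.

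Each comparison was fitted with limma 3.58.1 (R 4.3.3, limma-trend) on log2(FPKM + 1) of its 6 libraries, with genes kept if 3 or more of these libraries reached 1 FPKM, and p-values were adjusted by Benjamini-Hochberg over all genes tested. Calls needed an adjusted p under 0.05 and a 2-fold change. Named members were the highest member of each complex, the 2 members with the largest called change per direction and comparison, and copies of one subunit with different highest groups; other named members were chosen after their values were seen. Members and lists were chosen with earlier results of these data known, list patterns were trimmed after their matches were seen, and the testis list was added after the values were seen.

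Same-numbered libraries deviated together (correlation over 0.1 in all 3 pairs) only in 3rd over 1st instar larvae (0.379, 0.666 and 0.145), where a replicate block left the counts at 1 higher and 0 lower. Alternatives were a pseudocount of 0.1, no filter, rescaling, all 18 stage or 12 tissue libraries in 1 fit, a replicate block, and each library left out (filter in 2 libraries). Tested on simulated data for adults over pupae, 192 of 199 tested genes changed 4-fold were called in the right direction, and 9 unchanged genes were called. For midgut over fat body 194 of 200 were called in the right direction, and 24 unchanged genes were called. The scaling between libraries was not part of the simulation. Coordinates and gene names are those of the deposited table. Tables were handled in Python 3.11.15 with pandas 2.3.3 and numpy 2.4.6, and figures drawn with matplotlib 3.10.9.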

Additional observations from a re-analysis of the deposited data

Results flagged for a closer look

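A gene model outside the members, one the authors assembled and matched to chain 1 of complex I, had a signal in every group. It averaged 1479 ± 697 FPKM in embryos, 29846 ± 9899 in 1st, 36527 ± 24592 in 3rd and 34993 ± 15915 in 5th instar larvae, 4265 ± 1289 in pupae and 56118 ± 24511 in adults (SD, n = 3 each). In tissues it averaged 13027 ± 7815 FPKM in midgut, 7871 ± 2163 in silk gland, 23783 ± 14739 in fat body and 1627 ± 219 in hemolymph. It was set aside by the rule on annotated models and enters no count or sum here.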

How the results depend on the processing

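The scaling between libraries moved the counts most. After rescaling by recovered fragments, called members (higher and lower) and their median log2 fold change were 4 lower and 2.08 in 1st instar larvae over embryos, 2 lower in 3rd over 1st instar larvae, 22, 20 and −0.73 in pupae over 5th instar larvae, 30, 22 and 0.61 in adults over pupae, 9, 3 and 0.49 in midgut over hemolymph, 22, 0 and 0.56 in midgut over fat body, 71, 0 and 1.42 in midgut over silk gland, 4, 11 and −0.11 in fat body over hemolymph, 0, 46 and −1.02 in silk gland over hemolymph, and 3 and 41 in silk gland over fat body. The median changed sign in midgut over fat body, fat body over hemolymph and silk gland over hemolymph, as did LOC114355448 in adults over pupae (−0.14). With no filter 2 members were lower in 1st instar larvae over embryos, 1 higher in pupae over 5th instar larvae and 0 lower in midgut over silk gland. All stage libraries in 1 fit gave 7 lower in 5th over 3rd instar larvae, and the replicate block 1 higher in pupae over 5th instar larvae; the block moved no other count by over 1.5 times. Apart from rescaling, all 44 medians kept their direction and size, within the spread, and 83 of 88 counts stayed within 1.5 times.

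Leaving out 1 library at a time gave 0 to 2 lower members in 1st instar larvae over embryos, 1 to 2 higher and 0 to 1 lower in 3rd over 1st instar larvae (median −0.27 to 0.0815, the last without 3rd instar replicate 3), 12 to 20 higher and 0 to 2 lower in 5th over 3rd instar larvae, 0 to 2 higher in pupae over 5th instar larvae, 5 to 11 lower in adults over pupae (5 without pupa replicate 2), 0 to 1 lower in midgut over hemolymph, 3 to 7 lower in midgut over fat body (median −0.30 to 0.0295, the last without fat body replicate 2), 10 to 24 higher and 0 to 1 lower in midgut over silk gland, 1 to 3 lower in fat body over hemolymph, 0 to 1 lower in silk gland over hemolymph and 12 to 31 lower in silk gland over fat body. Of 306 values of named members in these fits 28 lost their call, 1 gained it and 0 changed sign. The cause of these shifts was not tested.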
